A study of Sus scrofa with 8 samples.

Results

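Translation factors are the proteins that guide the ribosome through initiation and elongation. The genes described here are those whose symbol begins with EIF1, EIF2, EIF4, EIF5, EIF6, EEF1 or EEF2, without the EIF3 subunits, the EIF2AK kinases, EIF1AX and EIF1AY. This rule used names alone and found 43 of 25880 pig genes, 36 named by a table of gene symbols and 7 by their position (EIF2S3, EIF5A, EIF4EBP3, EEF1G, EEF2KMT, EEF1AKMT1 and EEF1AKMT2). Of these, 42 passed the filter on low counts, and EIF4E1B, an eIF4E relative of the germ line, did not, with 2 to 14 reads per library. A further 2 identifiers without a symbol span the whole RefSeq gene of EEF1A1 or of EIF2B1. They lie outside the rule, are marked where printed and enter no count of members.

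The samples were olfactory epithelium from 8 newborn piglets, 4 wild-type (numbered 5, 9, 12 and 23) and 4 CFTR-knockout (numbered 6, 18, 20 and 21), in a study of olfactory loss in cystic fibrosis. The labels also call the knockout animals CFTR-null, and they give no strain, litter or sex. RNA-seq counts per gene totalled 30836904 to 43253395 per library. CFTR, the disrupted chloride channel gene, averaged 40.4 ± 10.9 CPM in the wild types and 6.84 ± 1.36 CPM in the knockouts (SD, n = 4 per genotype). The tissue label was checked with 17 genes of mature olfactory neurons, all of which were detected, and CNGA2, their cyclic nucleotide-gated channel, lay between 231 and 512 CPM in the 8 libraries. Values of single piglets are printed in the order 5, 9, 12 and 23 for the wild types and 6, 18, 20 and 21 for the knockouts. Levels are CPM, the reads of a gene as a share of its library, scaled between libraries by TMM, and changes are log2 fold changes of knockout over wild type with their standard error (SE). In bulk tissue, a change in the number of cells of a type and a change in RNA per cell cannot be told apart.

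In textbook terms, initiation begins when eIF2 brings the initiator tRNA to the small ribosomal subunit, while eIF4E binds the mRNA cap and the scaffold eIF4G recruits the helicase eIF4A. EIF1 and EIF5 help select the start codon, and EIF5B joins the subunits. EIF5 itself was not analysed here. In elongation, eEF1A delivers aminoacyl-tRNA and eEF2 moves the ribosome along the mRNA. The mRNAs of the elongation factors and of EIF4B carry, like those of ribosomal proteins, a pyrimidine tract at their start through which mTOR signalling controls their translation.

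No translation factor passed the test at a Benjamini-Hochberg adjusted p of 0.05 by edgeR, where 1 gene of 17175 did (0.00582%). DESeq2, on the same counts, called 2 of the 42, EIF4B and EEF2, both higher in knockout piglets, a share of 4.76% against 1.37% of all genes. The median log2 fold change of the 42 genes was -0.02, beside 0.01 over all genes, and 33 of them lay within 0.25 of 0. At an unadjusted edgeR p under 0.05, 7 were higher (16.7%, against 5.4% of all genes) and 4 lower (9.52%, against 5.8%). The groups did not overlap in 6 genes that were higher (14.3%, against 2.45% of all genes) and in 2 that were lower (4.76%, against 3.36%).

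**Figure D1:**
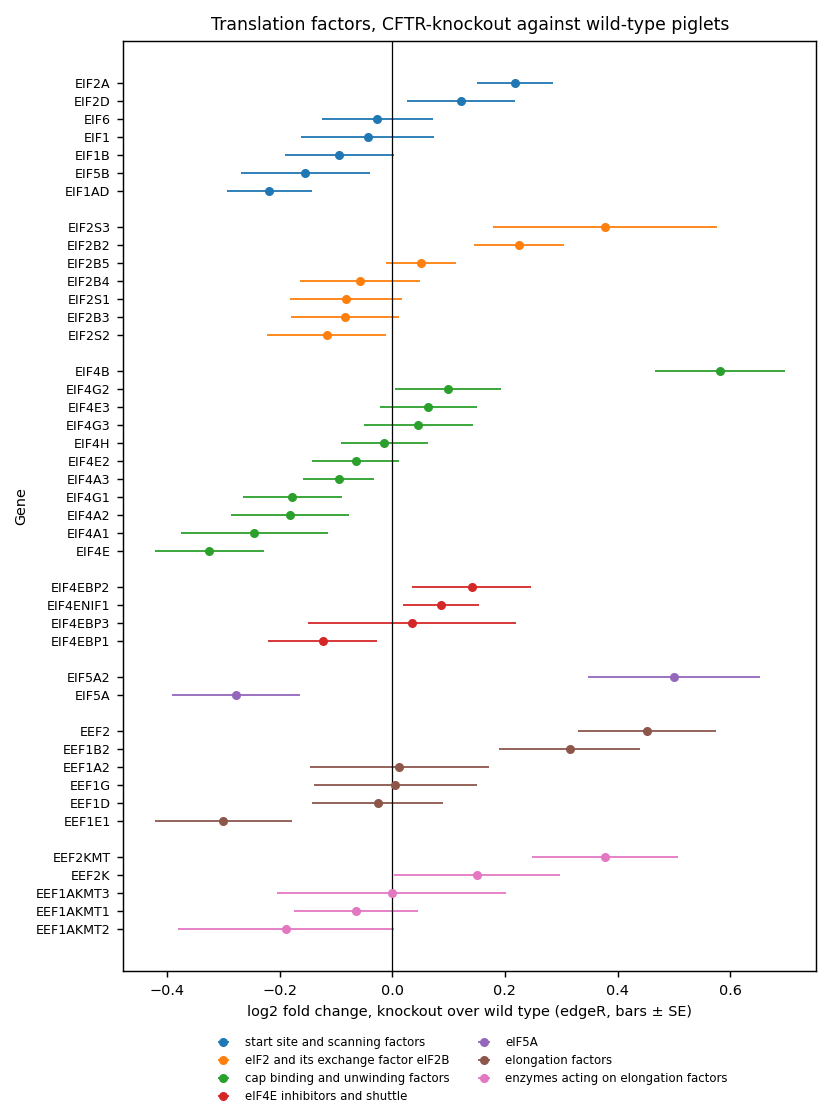
Log2 fold change of each of the 42 tested genes (x axis, edgeR, bars ± SE), grouped by role on the y axis. EIF4B, EIF5A2 and EEF2 stand farthest to the right and EIF4E farthest to the left, between -0.33 and 0.58, and each role holds genes on both sides of 0.

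Some of these counts were smaller in the libraries without Y-linked reads. Wild-type piglets 9 and 12 had 1388 and 1640 reads of EIF1AY and KDM5D, which are Y-linked, and the other 6 libraries had 0. Those 6 libraries are wild-type piglets 5 and 23 and the 4 knockouts, so the comparison has less power than that of all 8. In it 4 members were higher (9.52%, against 6.61% of all genes) and 2 lower (4.76%, against 5.33%) at an unadjusted p under 0.05. None passed after adjustment. The 6 were EIF4B, EEF2, EIF5A2, EEF2KMT, EIF4E and EIF5B, so EIF2A, EIF2B2, EEF1B2, EIF1AD, EEF1E1 and EIF5A were no longer among them and EIF5B was added. The log2 fold changes of these genes in both comparisons are given below, and why genes left the list was not tested.

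Marker genes of several cell types also differed between the genotypes at an unadjusted p under 0.05, and none passed the edgeR test after adjustment. Of the 17 mature neuron genes, 16 had a positive log2 fold change and 5 were higher (29.4%, against 5.4% of all genes), with sums of 6664 to 11404 CPM in the wild types and 9549 to 11890 CPM in the knockouts. Of 11 dividing progenitor genes, 9 were negative and 4 lower (36.4%, against 5.8% of all genes), and DESeq2 called 2 lower, with sums of 379 to 537 and 352 to 398 CPM. Of 8 genes of ensheathing and Schwann glia, 6 were negative, 2 lower (25%, against 5.8% of all genes) and 1 higher (12.5%, against 5.4%). DESeq2 called 1 of them lower, and the sums were 185 to 256 and 176 to 192 CPM. Of 9 sustentacular cell genes, 5 were positive and 2 lower (22.2%, against 5.8% of all genes), with sums of 4017 to 4900 and 3932 to 5173 CPM. Of 8 tested genes of blood and immune cells, 7 were positive and 1 higher (12.5%, against 5.4%). Their list summed to 71.8 to 166 CPM in the wild types and 112 to 527 CPM in the knockouts, highest in knockout piglet 18. No gene of these lists was at 0 throughout. The part of these cell types in the translation factor results was not tested.

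Among the factors that bind the cap and unwind the mRNA, EIF4B had the largest log2 fold change of the 42 tested members. It stimulates the eIF4A helicase and is a target of mTOR and S6 kinase signalling. EIF4B had values of 338, 240, 284 and 265 CPM in the wild types and of 424, 462, 408 and 392 CPM in the knockouts. Every knockout value thus lay above every wild-type value, and wild-type piglet 5 was the closest to the knockouts. On the log2 scale the change was 0.58 ± 0.12, a 1.5-fold higher level (edgeR adjusted p = 0.326, DESeq2 adjusted p = 0.00114). In the 6 libraries without Y-linked reads it was 0.48, with an edgeR adjusted p of 0.309.

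EIF4E, the cap-binding protein itself, had the most negative log2 fold change of the 42. It had values of 82.6, 88.7, 66.8 and 79.6 CPM in the wild types and of 68.8, 63.5, 59.6 and 61.8 CPM in the knockouts. The groups overlapped through wild-type piglet 12, whose value was below that of knockout piglet 6. In edgeR the log2 fold change was -0.33 ± 0.10 (edgeR adjusted p = 0.371, DESeq2 adjusted p = 0.120), and -0.36 in the 6 libraries without Y-linked reads. Its relatives EIF4E2, a cap-binding repressor, and EIF4E3 differed less, with log2 fold changes of -0.07 ± 0.08 and 0.06 ± 0.09.

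The scaffold genes differed in sign. EIF4G2, which lacks the eIF4E-binding region and serves cap-independent initiation, had values of 2095, 2062, 2136 and 1976 CPM in the wild types. In the knockouts it had 2299, 2236, 2156 and 2166 CPM, so the groups did not overlap although the step between them was small, a log2 change of 0.10 ± 0.09 (edgeR adjusted p = 0.671). EIF4G1, the main scaffold, averaged 426 ± 38.2 CPM in the wild types and 377 ± 15.03 CPM in the knockouts (SD, n = 4 per genotype), with a log2 change of -0.18 ± 0.09 (edgeR adjusted p = 0.463). EIF4G3, its close relative, had 0.05 ± 0.10.

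The helicases EIF4A1 and EIF4A2 and the exon junction helicase EIF4A3 all had negative log2 fold changes, and none passed the test. EIF4A1 had values of 464, 668, 477 and 506 CPM in the wild types and of 461, 448, 397 and 477 CPM in the knockouts. Wild-type piglet 9 was the high library, and the groups overlapped in the rest. The log2 fold changes were -0.25 ± 0.13 for EIF4A1, -0.18 ± 0.10 for EIF4A2 and -0.10 ± 0.06 for EIF4A3. Without wild-type piglet 9 that of EIF4A1 was -0.11, and without wild-type piglet 23 that of EIF4A2 was -0.11. EIF4H, which like EIF4B aids the helicase, averaged 384 ± 18.6 CPM in the wild types and 380 ± 17.7 CPM in the knockouts (SD, n = 4 per genotype), a log2 fold change of -0.01 ± 0.08.

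The proteins that hold eIF4E in check did not pass in either direction. EIF4EBP2, the eIF4E-binding repressor abundant in neurons, averaged 239 ± 25.5 CPM in the wild types and 264 ± 26.1 CPM in the knockouts (SD, n = 4 per genotype), a log2 fold change of 0.14 ± 0.11. EIF4EBP1 had -0.12 ± 0.10, or -0.0031 without piglets 9 and 12. EIF4EBP3 had 0.03 ± 0.19, and EIF4ENIF1, which carries eIF4E into the nucleus, had 0.09 ± 0.07.

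**Figure D2:**
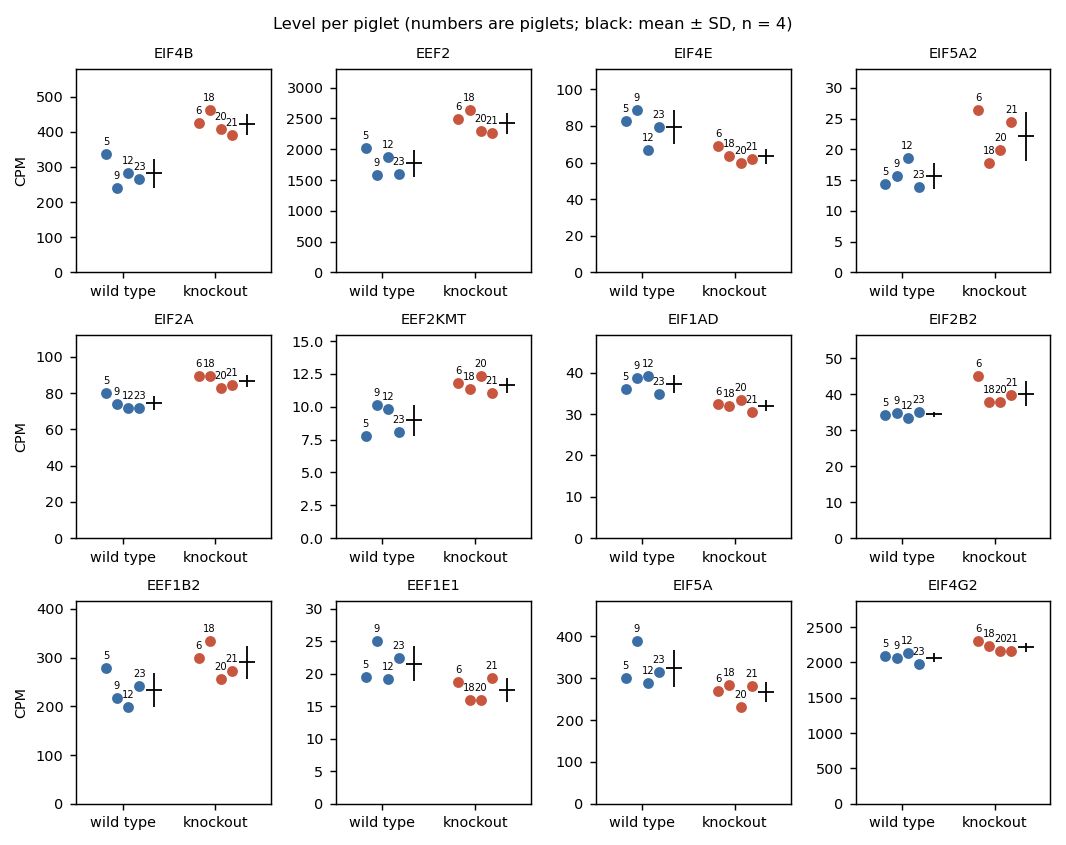
Level in CPM (y axis, from 0) of the 12 genes with an unadjusted p under 0.05 or groups that did not overlap, 1 point per piglet with its number and the mean ± SD (n = 4) in black. All 4 knockout points lie above the wild-type points for EIF4B, EEF2, EIF2A, EEF2KMT, EIF2B2 and EIF4G2 and below them for EIF1AD and EIF5A.

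Of the elongation factors, EEF2, the translocase, differed most. It had values of 2016, 1577, 1874 and 1606 CPM in the wild types and of 2484, 2637, 2300 and 2257 CPM in the knockouts. No knockout value reached down to the wild-type range. Its log2 fold change came to 0.45 ± 0.12, a 1.37-fold higher level (edgeR adjusted p = 0.349, DESeq2 adjusted p = 0.00871), and 0.42 in the 6 libraries without Y-linked reads.

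EEF2 also made up most of the net difference in the members' summed level. All 43 members together took 10383 ± 162 CPM in the wild types and 11110 ± 485 CPM in the knockouts (SD, n = 4 per genotype), a difference of 728 CPM, of which EEF2 gave 651 CPM. EIF4G2 added 147 CPM and EIF4B 140 CPM. EIF4A2 took away most, with a knockout minus wild-type difference of -92.1 CPM. The sum leaves out the identifier that holds EEF1A1, which averaged 5117 ± 899 CPM in the wild types and 6017 ± 969 CPM in the knockouts. Its difference was larger than that of EEF2, but its groups overlapped.

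EEF1B2, a nucleotide exchange factor for eEF1A, had values of 278, 216, 199 and 241 CPM in the wild types and of 300, 333, 257 and 272 CPM in the knockouts. Wild-type piglet 5 lay within the knockout range. This came to 0.31 ± 0.13 on the log2 scale (edgeR adjusted p = 0.419), and it was 0.16 in the 6 libraries without Y-linked reads. The other exchange factor subunits differed less, with EEF1G, which anchors the complex, at 0.01 ± 0.14 and EEF1D at -0.03 ± 0.12.

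EEF1E1, a small scaffold protein of the multi-tRNA synthetase complex, went the other way. It had values of 19.5, 25.004, 19.2 and 22.4 CPM in the wild types and of 18.7, 16.0, 15.9 and 19.3 CPM in the knockouts. Knockout piglet 21 just exceeded wild-type piglet 12, and the rest were apart. The log2 fold change was -0.30 ± 0.12 (edgeR adjusted p = 0.424), and -0.27 without piglets 9 and 12.

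The tRNA-delivering factors did not pass the test. EEF1A2, the isoform of neurons and muscle, had values of 363, 550, 579 and 583 CPM in the wild types and of 514, 494, 476 and 608 CPM in the knockouts. Wild-type piglet 5 was the low library, and it also had the lowest sum of 17 mature neuron genes (6664 CPM, against 8948 to 11890 CPM in the others). The log2 fold change of EEF1A2 was 0.01 ± 0.16, or -0.13 when wild-type piglet 5 was left out. The identifier that holds EEF1A1, the widely expressed isoform, had values of 6412, 4728, 4358 and 4970 CPM in the wild types and of 5905, 7415, 5261 and 5489 CPM in the knockouts. Its log2 fold change of 0.23 ± 0.17 became 0.12 when knockout piglet 18 was left out and 0.08 in the 6 libraries without Y-linked reads.

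Knockout piglet 18 held the highest value of EIF4B, EEF2, EEF1B2, EEF1G, EEF1D and the EEF1A1 identifier. The same library was far above the others in the markers of bone and connective tissue (12 genes, all detected), with a sum of 43100 CPM against 1318 to 5400 CPM in the other 7, and it had the highest sum of ribosomal protein genes. Without it, the log2 fold change was 0.53 for EIF4B and 0.41 for EEF2. For EEF1B2 it was 0.24 and for EEF1G -0.14. Over the 42 genes, wild-type piglet 9 held the highest value in 14 and knockout piglet 20 the lowest in 13.

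None of the enzymes that modify the elongation factors passed the test. EEF2KMT, a methyltransferase of eEF2, overlaps ALG1 on the opposite strand (mean 25.1 CPM over the 8 libraries), so its reads are uncertain. It had values of 7.77, 10.2, 9.82 and 8.10 CPM in the wild types and of 11.8, 11.4, 12.4 and 11.02 CPM in the knockouts. All knockout values were the higher ones. In edgeR the log2 fold change was 0.38 ± 0.13 (edgeR adjusted p = 0.407) and 0.55 in the 6 libraries without Y-linked reads. EEF2K, the kinase that inhibits eEF2, averaged 56.5 ± 8.70 CPM in the wild types and 62.7 ± 11.1 CPM in the knockouts (SD, n = 4 per genotype), a log2 fold change of 0.15 ± 0.15 that was 0.04 without knockout piglet 6 and 0.29 without piglets 9 and 12. The methyltransferases of eEF1A, EEF1AKMT1, EEF1AKMT2 and EEF1AKMT3, had log2 fold changes of -0.06, -0.19 and 0.00, each smaller than its SE.

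The 2 genes of eIF5A, the factor that carries the amino acid hypusine and relieves stalled ribosomes, differed in opposite directions. EIF5A had values of 302, 389, 289 and 315 CPM in the wild types and of 270, 283, 232 and 282 CPM in the knockouts. The groups did not overlap, with wild-type piglet 12 only just above knockout piglet 18. Its log2 fold change came to -0.28 ± 0.11 (edgeR adjusted p = 0.425). EIF5A2, its low-level paralogue, had values of 14.3, 15.7, 18.6 and 13.9 CPM in the wild types and of 26.4, 17.8, 19.9 and 24.4 CPM in the knockouts. Wild-type piglet 12 exceeded knockout piglet 18. This came to 0.50 ± 0.15 on the log2 scale (edgeR adjusted p = 0.372), and 0.65 in the 6 libraries without Y-linked reads, where that of EIF5A was -0.21.

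The subunits of eIF2 and of its exchange factor eIF2B, through which stress kinases lower initiation, differed in sign among themselves. Of 7 tested, 3 had a positive log2 fold change, and the median was -0.06. EIF2B2, the beta subunit of the exchange factor, had values of 34.1, 34.8, 33.4 and 35.1 CPM in the wild types and of 45.1, 37.8, 37.9 and 39.7 CPM in the knockouts. The groups did not overlap, and knockout piglet 6 was the highest (0.23 ± 0.08, edgeR adjusted p = 0.407, and 0.21 without piglets 9 and 12). EIF2B3, EIF2B4 and EIF2B5, the other exchange factor subunits within the rule, lay between -0.08 and 0.05, and the identifier that holds EIF2B1 had 0.09 ± 0.08. EIF2S1, the alpha subunit that the stress kinases phosphorylate, had -0.08 ± 0.10 and EIF2S2, the beta subunit, -0.12 ± 0.11.

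EIF2S3, the gamma subunit, which binds the initiator tRNA, is X-linked in the table. It had values of 112, 74.6, 59.1 and 112 CPM in the wild types and of 110, 134, 110 and 111 CPM in the knockouts. The 2 low values belonged to the 2 piglets with Y-linked reads, and the other wild-type values lay within the knockout range. On the log2 scale the change was 0.38 ± 0.20 with all libraries (edgeR adjusted p = 0.484) and 0.05 in the 6 libraries without Y-linked reads. The X-linked EIF1AX, which the rule leaves out, was 190 and 181 CPM in piglets 9 and 12 and 211 to 254 CPM in the others. DDX3X, an X-linked helicase of initiation, was 452 and 470 CPM in those piglets and 519 to 693 CPM in the others.

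**Figure D3:**
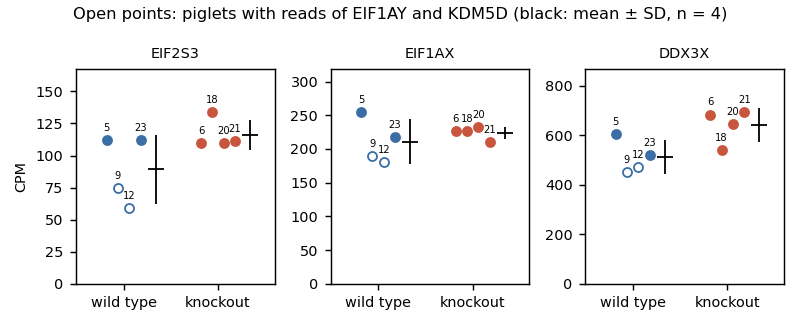
Level in CPM (y axis, from 0) of the X-linked genes EIF2S3, EIF1AX and DDX3X, 1 point per piglet with its number and the mean ± SD (n = 4) in black. Open points are wild-type piglets 9 and 12, the libraries with EIF1AY and KDM5D reads, and they are the lowest points of each panel.

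Among the start site factors, EIF2A, which can deliver the initiator tRNA without eIF2, had values of 80.1, 73.9, 71.7 and 71.8 CPM in the wild types and of 89.6, 89.3, 82.9 and 84.4 CPM in the knockouts. Its groups did not overlap, with the knockouts higher (0.22 ± 0.07, edgeR adjusted p = 0.372), and the change was 0.18 in the 6 libraries without Y-linked reads. EIF1AD, a nuclear relative of eIF1A, overlaps BANF1 on the opposite strand (mean 128 CPM over the 8 libraries), so its reads are uncertain. It had values of 36.2, 38.8, 39.3 and 34.8 CPM in the wild types and of 32.3, 31.9, 33.5 and 30.4 CPM in the knockouts. Here the knockouts were the lower ones throughout (-0.22 ± 0.08, edgeR adjusted p = 0.407, and -0.15 without piglets 9 and 12). EIF5B had values of 62.4, 53.5, 51.2 and 72.9 CPM in the wild types and of 51.1, 56.0, 56.7 and 51.8 CPM in the knockouts. The high values were those of wild-type piglets 5 and 23, and the groups overlapped. Its log2 fold change was -0.15 ± 0.12 over the 8 libraries, -0.33 without piglets 9 and 12 (edgeR adjusted p = 0.324) and -0.05 without wild-type piglet 23. EIF1, its paralogue EIF1B, EIF2D, a tRNA-delivering recycling factor, and EIF6, which keeps the large ribosomal subunit free, lay between -0.09 and 0.12.

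Levels of different genes were compared per kb of exon, as the table gives the length. The 42 tested genes had a median of 26.3 CPM per kb in wild-type piglets, against 6.01 CPM per kb over all genes tested. The identifier that holds EEF1A1 was highest at 1402 ± 246 CPM per kb, the 16th of all 25880 genes. It was followed by EIF1 at 501 ± 58.9, EIF4G2 at 442 ± 14.5, EEF1G at 428 ± 43.5 and EEF2 at 301 ± 36.2 CPM per kb (SD, n = 4 each), of which EIF1, EIF4G2 and EEF1G had overlapping values. The helicases EIF4A2 and EIF4A1 were next, at 155 ± 16.1 and 151 ± 27.0 CPM per kb, again within their spread. EIF4E was far lower than its partners, at 12.7 ± 1.48 CPM per kb, beside 44.6 ± 3.998 for EIF4G1 and 33.6 ± 3.59 for EIF4EBP2. Between EIF4A1 and EIF4E lay, among others, EIF5A (67.5 ± 9.30), EIF1B (55.9 ± 5.38), EIF2S3 (33.4 ± 10.0), EIF2B4 (32.4 ± 4.52), EEF1AKMT1 (27.5 ± 2.86) and EIF4EBP1 (25.05 ± 2.91 CPM per kb). The lowest tested member was EIF5A2 at 2.55 ± 0.346 CPM per kb.

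**Figure D4:**
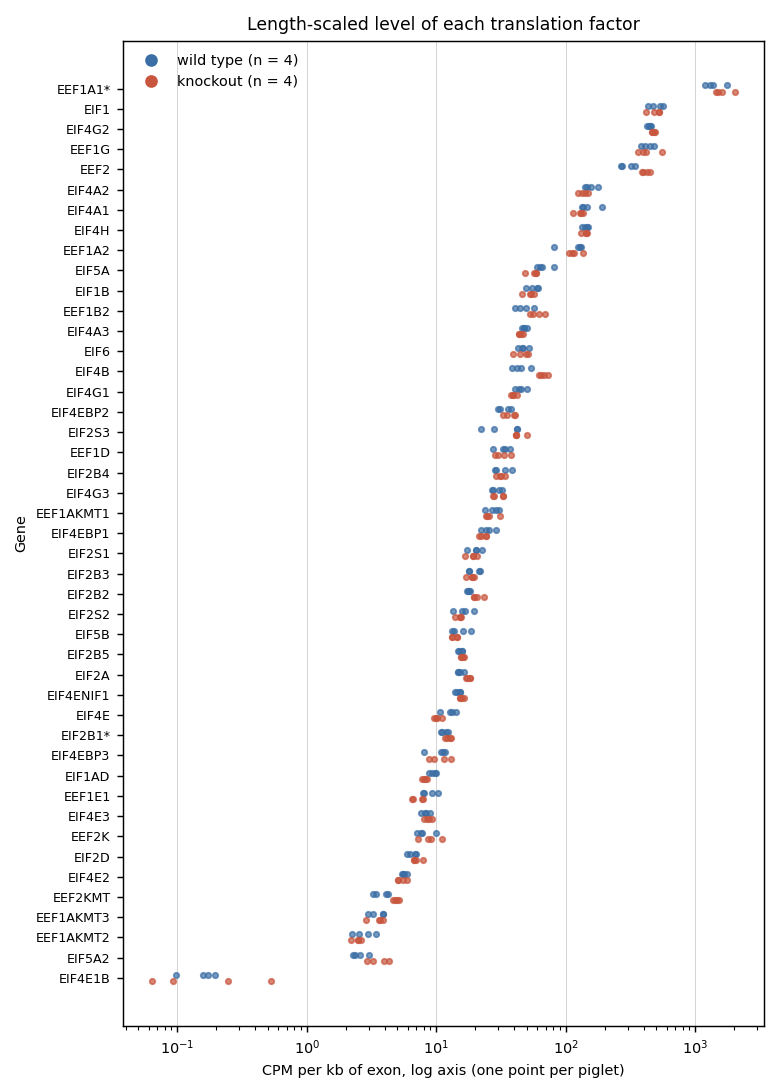
CPM per kb of exon on a log axis (x axis) for each gene (y axis), 1 point per piglet, wild type in blue and knockout in red. Stars mark the identifiers that hold EEF1A1 and EIF2B1, and levels run from EEF1A1 at 1402 CPM per kb in wild-type piglets to EIF4E1B at 0.156.

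Ratios between paralogues within a library, which do not depend on scaling between libraries, were set side by side without a test. EIF5A2 over EIF5A was 0.0371, 0.0315, 0.0502 and 0.0345 in the wild types and 0.0763, 0.0490, 0.0668 and 0.0675 in the knockouts. The ratio was higher in 3 knockout piglets than in any wild-type piglet, and knockout piglet 18 fell just below wild-type piglet 12. EIF4E over its repressor EIF4EBP2 was 0.383 ± 0.0751 in the wild types and 0.276 ± 0.0367 in the knockouts (SD, n = 4 per genotype), with an overlap at wild-type piglet 12. EIF4G3 over EIF4G1 was 0.549 to 0.708 in wild-type and 0.713 to 0.825 in knockout piglets, next to each other without overlap.

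The remaining ratios overlapped between the groups. EEF1A2 over the EEF1A1 identifier was 0.0864 ± 0.0275 in the wild types and 0.0725 ± 0.0147 in the knockouts (SD, n = 4 per genotype). EIF4A2 over EIF4A1 was 1.05 ± 0.169 and 1.08 ± 0.140. EIF4EBP2 over EIF4EBP1 was 1.37 ± 0.274 and 1.63 ± 0.256, and EIF1B over EIF1 was 0.112 ± 0.0102 and 0.108 ± 0.00315.

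**Figure D5:**
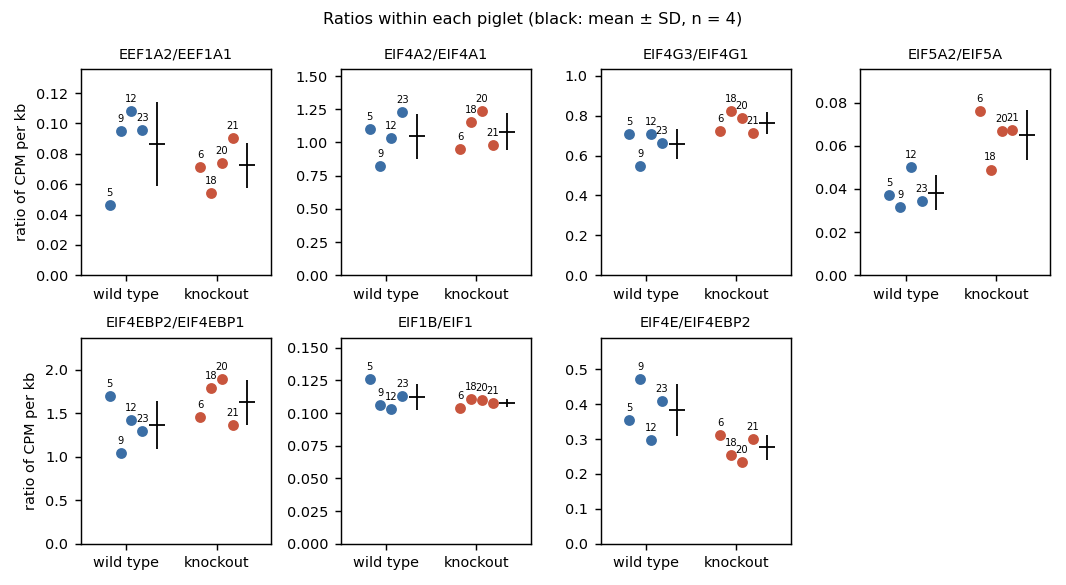
Ratio of CPM per kb between the named pairs (y axis, from 0), 1 point per piglet with its number and the mean ± SD (n = 4) in black. EIF5A2 over EIF5A lies at 0.0315 to 0.0502 in wild-type and 0.0490 to 0.0763 in knockout piglets.

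Other genes of translation were counted in lists, with no gene passing the edgeR test. Over all 17175 genes, 8867 had a positive and 8308 a negative log2 fold change, and 5.4% were higher and 5.8% lower at an unadjusted p under 0.05. Of 76 cytosolic ribosomal protein genes tested, 52 had a positive log2 fold change and the median was 0.04, with 1 gene higher and 1 lower (1.32% each) at that p. The lower gene was RPL10A, named by position, which had only 8 to 29 reads per library. The higher gene, RPL15, also named by position, averaged 494 ± 57.6 CPM in the wild types and 591 ± 45.7 CPM in the knockouts (SD, n = 4 per genotype). Of 17 genes of poly(A) binding and translational repression, 13 were positive (median 0.10), with 3 higher (17.6%) and 1 lower (5.88%). They were led by CPEB2, a repressor that binds mRNA 3' ends (-0.24 ± 0.09), DDX3X (0.33 ± 0.12) and PAIP2B, which binds and inhibits poly(A)-binding protein (0.38 ± 0.15). DDX3X, X-linked as given above, was lowest in wild-type piglets 9 and 12, and wild-type piglet 5 (604 CPM) lay within the knockout range. PABPC1, the main poly(A)-binding protein, had 0.27 ± 0.12.

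Aminoacyl-tRNA synthetases and their scaffolds, which supply the elongation factors, were negative in 16 of 22 (median -0.08), with 4 lower (18.2%, against 5.8% of all genes) and 2 higher (9.09%, against 5.4%) at an unadjusted p under 0.05. FARSA and FARSB, the subunits of phenylalanyl-tRNA synthetase, had log2 fold changes of -0.42 ± 0.11 and -0.29 ± 0.09, and neither overlapped between the groups. Of the 2, FARSB alone was named by position. In all, 4 of the 22 were lower without overlap (18.2%, against 3.36% of all genes). QARS1, the glutaminyl-tRNA synthetase, averaged 134 ± 6.55 CPM in the wild types and 158 ± 6.94 CPM in the knockouts (SD, n = 4 per genotype) and was called by DESeq2 (adjusted p = 0.0492). Of 12 genes of termination and recycling, 8 were negative (median -0.06). ABCF2, an ATPase linked to ribosomes, had -0.26 ± 0.07 and was called lower by DESeq2 (adjusted p = 0.0224), and DENR, which recycles the small subunit, had -0.19 ± 0.08.

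In the list of eIF2 kinases, phosphatases and ATF4 targets, 9 of 16 were positive (median 0.06), with 3 higher (18.8%, against 5.4% of all genes) and 0 lower at an unadjusted p under 0.05. PPP1R15A and PPP1R15B, the subunits that direct the phosphatase to eIF2, had 0.29 ± 0.11 and 0.23 ± 0.09, both without overlap between the groups (2 of 16, 12.5%, against 2.45% of all genes), and CHAC1, an ATF4 target, had 0.65 ± 0.27. Of 9 genes that make hypusine on eIF5A or diphthamide on eEF2, 8 were negative (median -0.06), with DOHH, the last enzyme of hypusine synthesis, at -0.22 ± 0.11. Of 16 genes of mTORC1 and MNK signalling, 7 were positive (median -0.04), and none had an unadjusted p under 0.05, RPTOR, the mTORC1 scaffold, being the closest at -0.17 ± 0.08.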

How the data were processed

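The mRNA of each piglet's tissue was made into libraries after column purification with DNase treatment, per the labels' protocols. Values are unnormalized read counts of genes as deposited by the authors, in a featureCounts layout per the file headers. The submitters' processing notes list STAR 2.4.0 and Subread 1.5.0-p3 among their tools. The build and the use of strand are not given in the sources used here. Spans of 22 members overlap another identifier, so reads of such pairs, like those of pseudogene copies, are uncertain. Exon lengths are those per the file headers.

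Symbols came from a table (14857 identifiers) or from a reciprocal overlap of at least 50% with RefSeq spans of Sscrofa11.1 (1642). Of the 36 members named by the table, 33 got their own symbol by position, so names by position are less certain. All 17175 genes kept by edgeR's default filter were fitted with edgeR 4.0.16 (R 4.3.3, quasi-likelihood test, TMM, genotype alone) and adjusted by Benjamini-Hochberg at 0.05. SE were derived from the F statistic. DESeq2 1.42.0 and limma 3.58.1 with sample weights were alternatives, and scripts were tested on simulated data. Every library is a piglet of its own per the labels. Named in full were members with an unadjusted p under 0.05 (at most 12), members without overlap between groups and the 2 highest per kb in each role, and in each pathway list up to 3 genes with the smallest p; other members named with values, PABPC1, EIF1AX and DDX3X per piglet were chosen after their values were seen. Members and lists were chosen with earlier results of these data known. No sequence is printed.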

Additional observations from a re-analysis of the deposited data

Results flagged for a closer look

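In 4 of 88 groups of 4 libraries, 1 library lay farther from its nearest neighbour than Dixon's limit allows, and chance gives about 1 in 20. EEF1A2 was 363 CPM in wild-type piglet 5, against 550 to 583 CPM in the other wild-type piglets. EIF2S3 was 134 CPM in knockout piglet 18, against 110 to 111 CPM in the other knockouts. Knockout piglet 20 was low for EIF4H, at 354 CPM against 386 to 392 CPM, and for EIF2S2, at 98.2 CPM against 107 to 108 CPM.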

How the results depend on the processing

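No paired analysis was possible because the piglet numbers of the 2 groups are not shared. Of 16 alternatives, DESeq2 alone called members (2), and the members' median moved by less than the spread between libraries (0.06 on the log2 scale) in each. Over all genes, the count of 1 became 224 with DESeq2, 11 with limma and sample weights, 2 without knockout piglet 18 and wild-type piglet 5, 0 in the libraries without Y-linked reads, and 0 to 16 when 1 piglet was left out, 16 without wild-type piglet 12 and 0 without knockout piglets 6 or 20. EIF4B, EEF2, EIF4E and EIF5A2 kept their sign and an unadjusted p under 0.05 in all 16 alternatives. EEF2KMT did so in 15, EIF2A in 14, EIF1AD in 13, EIF2B2 in 12, EIF5A in 10, EEF1B2 in 9 and EEF1E1 in 9. These genes were picked by that p in the same libraries, which the alternatives reuse, so the counts are no independent support. Log2 fold changes of members near 0 turned their sign, and the cause was not tested. When 1 piglet was left out, they ranged from -0.0807 to 0.121 for EIF4EBP3, -0.134 to 0.0727 for EEF1A2, -0.140 to 0.0828 for EEF1G, -0.110 to 0.0262 for EEF1D, -0.121 to 0.0303 for EIF2B4, -0.117 to 0.0216 for EIF1, -0.0783 to 0.0408 for EIF6, -0.0518 to 0.0186 for EIF4H and -0.0778 to 0.0865 for EEF1AKMT3. With limma they were -0.00306 for EIF4EBP3, -0.00848 for EEF1A2 and -0.0360 for EEF1G, and with no filter -0.00615 for EEF1G. Without piglets 18 and 5 they were -0.106 for EEF1A2 and -0.0842 for EEF1G. In the libraries without Y-linked reads they were -0.0774 for EIF4EBP3, -0.109 for EEF1G and 0.00261 for EIF1, and with those reads as a covariate -0.0746, -0.105 and 0.00715, and 0.000756 for EIF4EBP1.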
